A study of Mus musculus with 8 samples.

Results

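The imprinted *Dlk1*-*Dio3* locus of mouse chromosome 12 was described through 7 of its genes, which were taken by symbol from the 32285 genes counted in single kidney cells. The RNAs *Meg3*, *Rian*, *Mirg* and *B830012L14Rik* come from the maternal copy of the locus, and the protein-coding genes *Dlk1*, *Rtl1* and *Dio3* come mainly from the paternal copy. The cells came from a single pool of tagged kidney cells, at E17.5 by the sample labels and E18.5 by the study's methods. Those used were of 2 male *Trim28* Δ/Δ embryos (mice 1 and 2, tagged ko) and 2 male *Trim28* f/f embryos (mice 3 and 4, tagged wt). Another 4508 cells of the pool had tags that the deposited tag list does not name, and they were left out. Both genotypes carried floxed *Trim28* on a C57BL/6 background. The *Trim28* Δ/Δ embryos also carried a *Six2*-cre transgene, which is active in nephron progenitors, so that the nephron epithelium that descends from them lacks TRIM28 while stroma, vessels, blood and the ureteric bud tree do not carry the deletion by design. Another 6 samples of newborn kidneys in bulk were not analysed here.

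Imprinted genes are expressed from the copy of one parent, and the choice is laid down by DNA methylation that differs between the parental copies. In the *Dlk1*-*Dio3* domain a methylated control region upstream of *Meg3* on the paternal copy keeps the maternal RNAs silent there. *Dlk1*, *Rtl1* and *Dio3* are expressed mainly from that copy. TRIM28 is brought to methylated control regions by the zinc finger proteins ZFP57 and ZFP445, and it protects their methylation in the early embryo.

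On GRCm38 the domain from the start of *Dlk1* to the end of *Dio3* spans 828.3 kb. *Dlk1* (ENSMUSG00000040856, chr12:109452823-109463336, plus strand) starts 88.2 kb before *Meg3* (ENSMUSG00000021268, chr12:109541001-109571726, plus strand), which is annotated as a long intergenic RNA. *Rtl1* (ENSMUSG00000085925, chr12:109589193-109600330) is read from the minus strand, and *Rian* (ENSMUSG00000097451, chr12:109603940-109661716), *B830012L14Rik* (ENSMUSG00000098202, chr12:109695586-109702587) and *Mirg* (ENSMUSG00000097391, chr12:109729764-109749460) follow on the plus strand. *Dio3* (ENSMUSG00000075707, chr12:110279068-110281097, plus strand) starts 738.1 kb after *Meg3*. The starts of *Meg3* and *Dlk1* are shown because the results separate them, each as 250 bases before and 50 after a RefSeq start (GRCm38.p6, plus strand, 5′ to 3′). Capitals mark the ZFP57 core TGCCGC, the cAMP response element TGACGTCA and the TATA box letters TATAAA, each searched on both strands.

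*Meg3*, chr12:109540746-109541045: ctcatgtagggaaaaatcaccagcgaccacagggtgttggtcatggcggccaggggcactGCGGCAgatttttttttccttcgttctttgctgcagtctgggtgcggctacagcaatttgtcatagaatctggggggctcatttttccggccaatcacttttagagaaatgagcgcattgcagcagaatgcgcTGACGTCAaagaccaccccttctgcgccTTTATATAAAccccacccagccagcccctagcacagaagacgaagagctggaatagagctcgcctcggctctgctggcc

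*Dlk1*, chr12:109452573-109452872: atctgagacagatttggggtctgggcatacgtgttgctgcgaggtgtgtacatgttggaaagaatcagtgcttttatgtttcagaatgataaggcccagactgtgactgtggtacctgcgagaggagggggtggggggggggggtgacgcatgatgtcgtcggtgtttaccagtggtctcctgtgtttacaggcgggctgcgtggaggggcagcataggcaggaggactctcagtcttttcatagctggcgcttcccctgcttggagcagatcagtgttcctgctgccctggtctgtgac

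The *Meg3* window shown, the first of a pair that RefSeq gives for the gene, held 1 TGCCGC (read on the minus strand), 1 TGACGTCA and 2 TATAAA, the last pair overlapping on opposite strands, together with 13 CpGs. The other *Meg3* window, chr12:109545148-109545447, held 0 of these motifs and 1 CpG. The *Dlk1* window held 0 of them and 9 CpGs. Among 32851 RefSeq promoter windows of the same length, 11.61% held TGCCGC, 1.79% TGACGTCA and 13.62% TATAAA, and the median number of CpGs was 7. A match of letters is a description and not a binding site.

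The maternal RNAs are also hosts of microRNAs, small RNAs that pair with messages through their seed. RefSeq places 2 hairpins within *Meg3*, 3 within *Rian* and 14 within *Mirg* on the strand of the host, and 6 within *Rtl1* on the opposite strand. Mature sequences from *Meg3*, *Rian* and *Mirg* are shown because they lie within the RNAs whose levels are reported, with the seed (bases 2 to 8) in capitals. The sequences opposite *Rtl1* are shown because they lie on the maternally read strand of that gene, whose RNA is not among the members. All the seeds shown differ, and the assay did not count these small RNAs.

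miR-770-5p, from *Meg3*: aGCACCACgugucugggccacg

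miR-127-3p, opposite *Rtl1*: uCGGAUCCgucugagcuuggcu

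miR-136-5p, opposite *Rtl1*: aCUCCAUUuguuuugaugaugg

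miR-370-3p, from *Rian*: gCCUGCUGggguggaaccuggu

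miR-410-3p, from *Mirg*: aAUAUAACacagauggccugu

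The values rest on 1316, 1491, 2749 and 1807 cells of mice 1 to 4, with between 25761268 and 52777501 unique molecular identifiers (UMIs, counts of single RNA molecules) per mouse. Clusters were called after a cell type only from fixed markers, as NPC-like (nephron progenitor), SSB-like (S-shaped body), ErPT-like (early proximal tubule), PT-like (proximal tubule), LOH-like (loop of Henle), DT-like (distal tubule), Pod-like (podocyte), UB-like (ureteric bud) and CD-like (collecting duct) classes, with intercalated, stroma, mural, endothelia, immune and erythroid classes beside them. The UMIs of a class were added up for each mouse, and levels are in CPM, with library sizes scaled by the TMM method. The members were kept out of the genes used for clustering. The assignment of cells to mice rests on their tags, and k-means in place of clara gave mice 1 to 4 1472, 1652, 2568 and 1759 cells. All 4 mice were in 1 library, so that the preparation of the library was not replicated. The p-values set the change between genotypes against the spread among the 2 mice of each genotype.

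*Trim28* fell in all of the NPC-like, SSB-like, ErPT-like, PT-like, LOH-like and DT-like classes, here called the 6 progenitor and tubule classes. In NPC-like cells it reached 26.8 and 23.3 CPM in *Trim28* Δ/Δ mice and 144 and 172 CPM in *Trim28* f/f mice (log2 change -2.67, edgeR adjusted p = 0.000345). The log2 change of *Trim28* was 0.01 in stroma-like and -0.08 in endothelia-like cells, neither called. These counts come from the 3′ end of the RNA, outside the floxed segment, and do not check the deletion itself.

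Across the 7363 cells less the 58 of unnamed cluster 23, 22065 UMIs fell on *Meg3*, 3699 on *Rian*, 393 on *B830012L14Rik* and 314 on *Mirg*. On the paternal side 4061 UMIs fell on *Dlk1*, 217 on *Rtl1* and 11 on *Dio3*.

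*Meg3* rose in each of the 6 progenitor and tubule classes of *Trim28* Δ/Δ kidneys and *Rian* in 5 of them, and *B830012L14Rik* and *Mirg* passed the test in fewer. The paternal genes were not called in any class in which they could be tested. Of 105 pairs of a member and a named class, 40 had enough counts to be tested, 14 were called higher in *Trim28* Δ/Δ and 0 lower (the quasi-likelihood test of edgeR, adjusted by Benjamini-Hochberg over all genes of a class). All 14 were maternal RNAs in the progenitor and tubule classes. *Meg3* rose in 6 of the 14 classes in which it was tested, *Rian* in 5 of 10, *B830012L14Rik* in 2 of 5 and *Mirg* in 1 of 4. *Dlk1* had enough counts for a test in 6 named classes, 3 of them progenitor or tubule classes, *Rtl1* in 1 and *Dio3* in 0. Among all genes tested, the share called higher in *Trim28* Δ/Δ was 0.596% in NPC-like, 0.207% in SSB-like, 0.653% in ErPT-like, 0.434% in PT-like, 0.0922% in LOH-like and 0.432% in DT-like cells. The share called lower was 0.863% in NPC-like, 0.0239% in SSB-like, 0.151% in ErPT-like, 0.104% in PT-like, 0.0184% in LOH-like and 0.4% in DT-like cells. Outside these classes it was 0.0195% in Pod-like, 0.0288% in immune-like and 0.0582% in unnamed cluster 7, and 0% in the others in which a member was tested.

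*Meg3*, a long non-coding RNA that stays largely in the nucleus, was low in the progenitors of *Trim28* f/f kidneys. In NPC-like cells it reached 97.3 and 93.04 CPM in the *Trim28* Δ/Δ mice and 18.3 and 13.0 CPM in the *Trim28* f/f mice. Each *Trim28* Δ/Δ mouse lay above each *Trim28* f/f mouse, with a log2 change of 2.63 (SE 0.24, edgeR adjusted p = 0.000977). In mice 1 and 2, 3 of 46 and 4 of 73 NPC-like cells held 47.96% and 57.35% of the *Meg3* UMIs. Without the top 5% of cells of each mouse the levels were 55.9 and 44.15 CPM of the plain total against 8.33 and 7.18 CPM. In SSB-like cells, the first segmented nephron stage, *Meg3* reached 233 and 235 CPM against 21.6 and 21.0 CPM, and the log2 change was 3.45 (SE 0.13, edgeR adjusted p = 2.36e-05). Of the 1067 SSB-like cells, 660 were in cluster 0, whose 10 leading genes were those of the cell cycle and histones, such as *Ube2c*, *Cenpf* and *Top2a*, with 0 SSB markers among them and close marker scores for SSB and renal vesicle (1.02 and 0.836). The genotypes did not overlap in either cluster of the class: *Meg3* reached 183 and 200 CPM of the plain total against 18.9 and 20.5 CPM in cluster 0. In cluster 5, led by *Fgf8*, it reached 344 and 309 against 29.4 and 21.9 CPM.

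In ErPT-like cells *Meg3* reached 451 and 410 CPM against 91.6 and 39.7 CPM (log2 change 2.70, SE 0.32, edgeR adjusted p = 0.0113). In PT-like cells it reached 177 and 168 CPM against 34.3 and 16.0 CPM (log2 change 2.77, SE 0.27, edgeR adjusted p = 0.00411, and 2.79 and not called with no filter on low counts). The genotypes did not overlap in either class, and the level of the *Trim28* Δ/Δ mice was lower in PT-like than in ErPT-like cells. ErPT-like cells joined 3 clusters, of which cluster 6 was mostly *Trim28* Δ/Δ and cluster 13 mostly mouse 3. Neither of these had a marker of early proximal tubule among its 10 leading genes, cluster 6 was led by genes that include *Slc7a12*, *Aqp1* and *Mep1a*, and its marker scores for early and for mature proximal tubule were close (0.871 and 0.741). Within cluster 3, which held cells of all mice, *Meg3* reached 510 and 461 CPM of the plain total against 155 and 54.3 CPM.

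The levels furthest apart were those of the distal nephron. In LOH-like cells *Meg3* reached 1179 and 803 CPM in *Trim28* Δ/Δ mice and 88.0 and 27.4 CPM in *Trim28* f/f mice (log2 change 4.06, SE 0.48, edgeR adjusted p = 0.0363). The call was lost with free RNA subtracted (4.48) and with k-means in the assignment of cells (4.22). In DT-like cells it reached 927 and 754 CPM against 81.6 and 8.81 CPM (log2 change 4.04, SE 0.49, edgeR adjusted p = 0.00106, and 4.23 and not called by DESeq2). Mice did not overlap between genotypes in either class, and mouse 3 lay above mouse 4 in both.

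**Figure D1:**
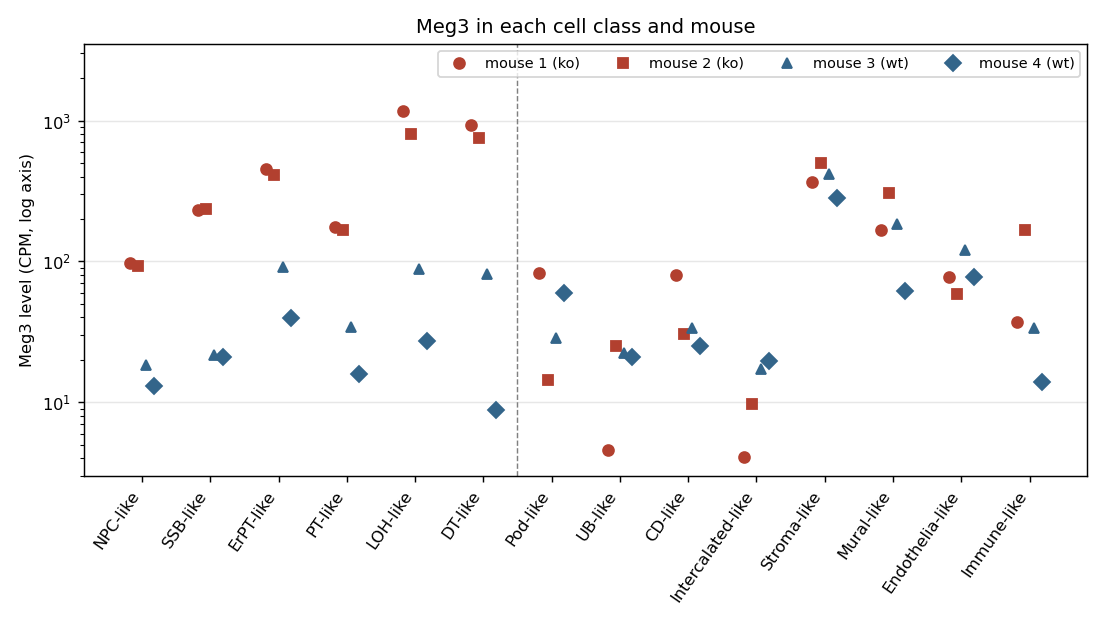
*Meg3* level (CPM, log axis) of each mouse, 1 point per mouse, in 14 named classes, without the erythroid-like class. The *Trim28* Δ/Δ (ko) mice sit above the *Trim28* f/f (wt) mice in the 6 progenitor and tubule classes left of the dashed line, from 97.3 and 93.04 against 18.3 and 13.0 CPM in NPC-like cells to 1179 and 803 against 88.0 and 27.4 CPM in LOH-like cells.

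Podocytes also descend from *Six2* progenitors. In Pod-like cells *Meg3* reached 82.4 and 14.5 CPM in *Trim28* Δ/Δ mice and 28.7 and 59.9 CPM in *Trim28* f/f mice. The genotypes overlapped, with 14 to 63 cells per mouse, and the log2 change was 0.46 (SE 0.59, not called). The log2 change of *Trim28* was -1.61 there (edgeR adjusted p = 0.275).

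Among the named classes of *Trim28* f/f kidneys, stroma held the highest *Meg3* level, with 420 and 282 CPM, and 368 and 499 CPM in *Trim28* Δ/Δ kidneys. The mice overlapped, and the log2 change was 0.30 (SE 0.22, not called), though without mouse 3 it was 0.63 and called. Of the named classes, mural-like cells, the contractile cells around vessels, followed with 183 and 62.1 CPM in *Trim28* f/f mice, and endothelia-like cells with 120 and 77.8 CPM. Mural-like and endothelia-like cells overlapped each other in *Trim28* f/f mice, and both stroma-like values lay above both mural-like values. In endothelia-like cells of *Trim28* Δ/Δ mice *Meg3* reached 77.2 and 58.6 CPM (log2 change -0.55, SE 0.25, not called, and -0.80 and called without mouse 4). In UB-like cells it reached 4.62 and 25.0 against 22.2 and 20.8 CPM, with overlap, and in CD-like cells 79.8 and 30.5 against 33.6 and 25.1 CPM. Nearly all CD-like cells of mouse 3 were in a cluster of their own (175 of the 176 cells of cluster 16). In immune-like cells *Meg3* reached 37.0 and 169 against 33.8 and 13.9 CPM (log2 change 2.05, SE 0.64, edgeR adjusted p = 0.993). In mouse 2, 2 of the 36 immune-like cells, 1 of them marked by Scrublet, held 95.7% of the *Meg3* UMIs, and the other cells were at 8.08 CPM. The thinned shares of immune-like cells with *Meg3* overlapped, at 15.4% and 5.56% against 12.3% and 11.4%. In erythroid-like cells, which do not descend from *Six2* progenitors, *Meg3* reached 79.0 and 54.6 CPM (20 and 26 UMIs in 21 and 29 cells) against 28.6 and 15.2 CPM (15 and 5 UMIs in 68 and 44 cells). The genotypes did not overlap there, and the log2 change of 1.47 (SE 0.42) was not called (edgeR adjusted p = 0.398). In mice 1 and 2, 2 of 21 and 2 of 29 of these cells held 75% and 50% of the *Meg3* UMIs. Their median share of tag UMIs on the highest tag was 50.6% and 63.9%, against 82.0% and 77.9% in all such cells of these mice. Without the top 5% of cells the levels were 23.9 and 38.7 CPM of the plain total against 12.15 and 2.43 CPM. Over the 8 named classes outside the progenitor and tubule classes in which *Meg3* was tested, 0 were called, 2 had an unadjusted p under 0.05, DESeq2 called 0, and the smallest edgeR adjusted p was 0.398. The share of all genes called higher there was 0% in each class but Pod-like, where it was 0.0974%.

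*Meg3* was also found in the free RNA of the suspension, at 128.8 CPM in barcodes with 10 to 100 UMIs. These barcodes were taken from the whole pool, whatever their tag. Scaled by the haemoglobin genes, free RNA accounts for an expected 6.5 CPM of *Meg3* in NPC-like, 15.6 in LOH-like and 12.6 in DT-like cells. The levels of *Trim28* f/f mice in these classes were between 8.81 and 88.0 CPM, and mouse 4 in DT-like cells, at 8.81 CPM, lay below what free RNA alone would give. In Pod-like cells the expected level was 33.5 CPM, above mouse 2 (14.5 CPM) and mouse 3 (28.7 CPM).

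The change of *Meg3* in the progenitor and tubule classes was compared with that in stroma by an interaction term with the mouse as a block. The log2 change of *Meg3* was larger than in stroma-like cells by 2.28 in NPC-like cells (SE 0.22, edgeR adjusted p = 1.9e-05) and by 2.53 in PT-like cells (edgeR adjusted p = 8.18e-05). That of *Rian* was larger by 2.18 in PT-like cells (edgeR adjusted p = 0.0168). The share of all genes called in these fits was 0.395% for NPC-like and 0.305% for PT-like cells. The other classes were compared in the same way after their values were seen, and the change of *Meg3* and of *Rian* was larger than in stroma-like cells in each of them, where 0.112% of genes were called for SSB-like, 0.267% for ErPT-like, 0.0504% for LOH-like and 0.248% for DT-like cells. *Dlk1* could be tested against stroma-like cells in all 6 classes, *B830012L14Rik* in 5 (not NPC-like) and *Mirg* in 4 (not NPC-like or DT-like), and none of these was called.

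Among the progenitor and tubule classes, the change of *Meg3* was larger than in NPC-like cells by 0.82 in SSB-like (SE 0.20, edgeR adjusted p = 0.0179), by 1.62 in LOH-like (SE 0.31, edgeR adjusted p = 0.0403) and by 1.74 in DT-like cells (SE 0.40, edgeR adjusted p = 0.0489). In ErPT-like and PT-like cells the differences were 0.22 (SE 0.21) and 0.24 (SE 0.24), not called. The share of all genes called against NPC-like cells was 2.3% for SSB-like, 0.918% for ErPT-like, 1.1% for PT-like, 0.305% for LOH-like and 0.581% for DT-like cells. Each of the 3 calls was lost when 1 mouse was left out: SSB-like without mouse 1, 2 or 3, LOH-like without mouse 1 and DT-like without mouse 4. These contrasts were not repeated with free RNA subtracted. With it subtracted, *Meg3* in NPC-like cells was 100.6 and 94.9 CPM in *Trim28* Δ/Δ mice and 11.6 and 5.90 CPM in *Trim28* f/f mice.

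*Rian*, a long RNA that hosts small nucleolar RNAs and microRNAs, was called in the same direction as *Meg3* in 5 of the progenitor and tubule classes. In NPC-like cells it reached 17.9 and 19.2 CPM in *Trim28* Δ/Δ mice and 4.82 and 2.93 CPM in *Trim28* f/f mice (log2 change 2.30, SE 0.40, edgeR adjusted p = 0.0219). In SSB-like cells it reached 44.03 and 43.0 against 4.45 and 4.01 CPM (log2 change 3.35, SE 0.20, edgeR adjusted p = 0.000491). The mice did not overlap in either class. The call in NPC-like cells was lost without mouse 1 (log2 change 2.34) or mouse 2 (2.24).

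*Rian* reached 58.6 and 57.2 against 13.7 and 6.54 CPM in ErPT-like cells (log2 change 2.46, SE 0.28, edgeR adjusted p = 0.011). In PT-like cells it reached 23.8 and 28.9 against 7.64 and 3.20 CPM (log2 change 2.27, SE 0.33, edgeR adjusted p = 0.0288), a call that was lost with no filter on low counts (2.29) and with cells assigned by the share of the highest tag (2.37). In DT-like cells it reached 176 and 122 against 19.7 and 5.51 CPM (log2 change 3.32, SE 0.33, edgeR adjusted p = 0.000145). In LOH-like cells the values were 183 and 127 against 16.2 and 2.32 CPM, without overlap, and the log2 change of 3.87 (SE 0.54) missed the threshold (edgeR adjusted p = 0.0563).

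In stroma-like cells *Rian* reached 55.1 and 109 CPM in *Trim28* Δ/Δ mice and 87.6 and 60.5 CPM in *Trim28* f/f mice, which overlapped. In endothelia-like cells it reached 11.5 and 12.2 against 19.4 and 21.4 CPM, lower in both *Trim28* Δ/Δ mice without overlap, and the log2 change of -0.78 (SE 0.28) was not called (edgeR adjusted p = 0.709). In Pod-like cells the 25 and 14 cells of *Trim28* Δ/Δ mice held 0 *Rian* UMIs, and each *Trim28* f/f mouse held 6 (7.82 CPM in 63 cells and 17.1 CPM in 31 cells), the reverse order without overlap, which was not tested. Over the 4 named classes tested outside the progenitor and tubule classes, stroma-like included, 0 were called, 1 (endothelia-like) had an unadjusted p under 0.05 and DESeq2 called 0 of 7.

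*Mirg*, the member with the most microRNA hairpins, was counted rarely. In DT-like cells it reached 9.06 and 8.62 CPM in *Trim28* Δ/Δ mice (11 and 10 UMIs) and 0.410 and 0 CPM in *Trim28* f/f mice (1 and 0 UMIs). The log2 change of 4.54 (SE 0.91, edgeR adjusted p = 0.0288) depends on the prior count at such counts, it was not called without mouse 3 (6.29) or mouse 4 (4.20), and DESeq2 called *Mirg* in 0 of the 3 progenitor and tubule classes it tested. In SSB-like cells *Mirg* reached 4.14 and 3.75 against 0.692 and 0.167 CPM, and in LOH-like cells 15.4 and 10.4 against 2.51 and 0 CPM. Both were without overlap and neither was called (edgeR adjusted p = 0.136 and 0.315). Outside these classes *Mirg* was also higher without overlap in stroma-like cells (8.57 and 5.51 against 4.14 and 5.13 CPM). The same held in CD-like (3.37 and 1.13 against 1.02 and 0.584 CPM) and immune-like cells (6.52 and 3.62 against 1.06 and 1.73 CPM). It had too few counts there for edgeR, and DESeq2 called 0 of 7 named classes outside the progenitor and tubule classes.

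*B830012L14Rik*, an RNA of unknown role between *Rian* and *Mirg*, rose in ErPT-like cells from 0.889 and 0.595 CPM in *Trim28* f/f mice to 8.23 and 7.07 CPM in *Trim28* Δ/Δ mice (log2 change 3.27, SE 0.41, edgeR adjusted p = 0.0148). In DT-like cells it reached 19.8 and 9.48 against 2.05 and 1.10 CPM (log2 change 2.99, SE 0.63, edgeR adjusted p = 0.0375). The call in ErPT-like cells was lost in 3 of 13 alternatives, among them without mouse 1 (3.17) or mouse 2 (3.39). That in DT-like cells was lost in 5 of 11, among them without mouse 1 (2.39) or mouse 3 (3.61). In LOH-like cells it reached 13.6 and 12.6 against 1.14 and 0.465 CPM, and in SSB-like cells 5.91 and 4.34 against 0.494 and 0.501 CPM. These mice did not overlap, and both changes missed the threshold (edgeR adjusted p = 0.0556 and 0.0508).

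**Figure D2:**
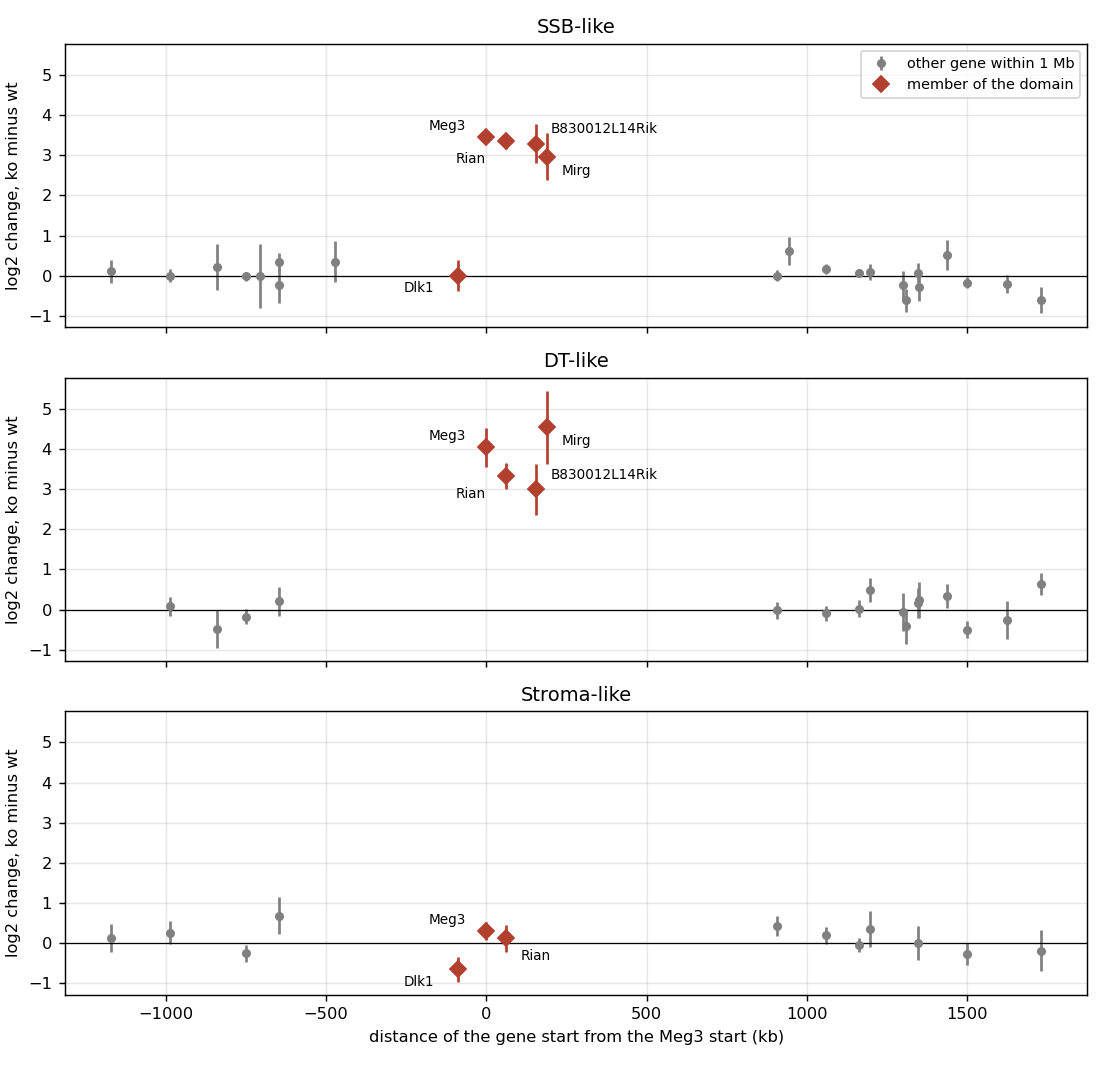
Log2 change (ko minus wt, y axis, bars of 1 SE) of the tested genes by distance of their start from the *Meg3* start (kb, x axis), in SSB-like, DT-like and stroma-like cells, with members as diamonds and other genes within 1 Mb as grey points. *Meg3* lies at 3.45 in SSB-like, 4.04 in DT-like and 0.30 in stroma-like cells, and *Dlk1* at 0.00 in SSB-like and -0.65 in stroma-like cells.

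The rise of *Meg3* was seen in the share of cells as well as in the sums. After thinning each cell to 6800 UMIs, 17.4% and 21.9% of NPC-like cells in the *Trim28* Δ/Δ mice held at least 1 *Meg3* UMI, against 8.88% and 7.24% in *Trim28* f/f mice. SSB-like cells gave 47.3% and 54.4% against 7.37% and 12.2%, and LOH-like cells 81.3% and 72.7% against 15.6% and 10.5%. Stroma-like cells gave 77.3% and 87.1% against 82.8% and 73.6%, with overlap. UB-like cells, in which *Meg3* was low, gave 4.17% and 10.9% against 14.8% and 14.9%, so that the shares of *Trim28* f/f NPC-like cells were within the range of that class. The *Trim28* Δ/Δ mice lay above the *Trim28* f/f mice in 8 named classes, the 6 progenitor and tubule classes and the mural-like and erythroid-like ones, and the exact permutation test (two-sided) cannot give a p below 0.333.

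**Figure D3:**
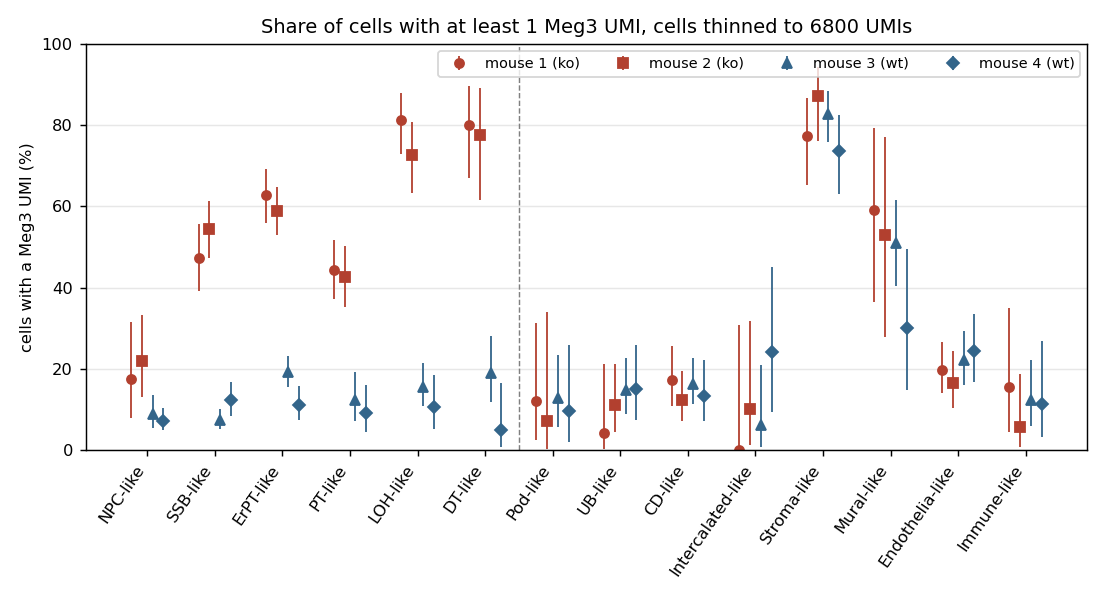
Share of cells (%) with at least 1 *Meg3* UMI after thinning to 6800 UMIs, for each mouse in 14 named classes (the erythroid-like class is left out), with exact binomial 95% intervals that cover counting error only. LOH-like cells sit at 81.3% and 72.7% in *Trim28* Δ/Δ (ko) mice and at 15.6% and 10.5% in *Trim28* f/f (wt) mice, and stroma-like cells at 73.6% to 87.1% in all mice.

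In *Trim28* f/f mice the *Meg3* of the distal classes lay in few cells, and so did that of other progenitor and tubule classes. In mice 3 and 4 the top 5% of cells held 67.6% and 72% of the *Meg3* UMIs in ErPT-like cells. They held 62.8% and 60% in PT-like and 63.5% and 49.2% in SSB-like cells. Of 205 LOH-like cells of mouse 3, 11 held 76.2% of the *Meg3* UMIs, and of 100 DT-like cells 5 held 76.9%. The median share of tag UMIs on the highest tag was 72.4% in those 5 DT-like cells and 87.8% in all DT-like cells of mouse 3, but 92.2% against 87.4% for the highest cells of mouse 4. In LOH-like cells it was 83.1% against 85.9% in mouse 3 and 55.5% against 83.4% in mouse 4. The part of such cells in the *Trim28* f/f level was not tested. With cells whose highest tag held at least 90% of tag UMIs, an alternative added after the values were seen, *Meg3* in LOH-like cells was 1365 and 842 CPM against 35.6 and 9.05 CPM, and in DT-like cells 894 and 650 CPM against 37.0 and 8.64 CPM. The values of mouse 4 rest on 5 and 4 *Meg3* UMIs in 17 and 16 cells. In ErPT-like cells this filter gave 137 and 53.5 CPM in *Trim28* f/f mice, above their 88.9 and 40.1 CPM of the plain total without it. Their NPC-like, SSB-like and PT-like values were lower with it. The median *Trim28* f/f cell of the LOH-like and DT-like classes held 0 *Meg3* UMIs.

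Over the progenitor and tubule classes, 258 of 765 cells of mouse 1 (33.7%) and 252 of 895 of mouse 2 (28.2%) held at least 3 *Meg3* UMIs after thinning. In *Trim28* f/f mice these were 48 of 1538 (3.12%) and 15 of 1130 (1.33%). *Trim28* in these cells of mice 3 and 4 was 79.0 and 81.8 CPM of the plain total, against 108.5 and 128.7 CPM in their other cells. In mice 1 and 2 it was 19.3 and 24.3 CPM, against 29.5 and 28.6 CPM in their other cells. These values pool classes with mean levels from 65.9 (PT-like) to 158 CPM (NPC-like) in *Trim28* f/f mice. The part of class make-up was not tested. Within classes, *Trim28* of the top cells by *Meg3* lay on either side of that of the others. It was higher in mouse 3 for ErPT-like (110.8 against 93.4 CPM) and PT-like cells (85.5 against 55.7 CPM). The same held in mouse 4 for NPC-like (171.5 against 159.2) and LOH-like cells (93.5 against 85.1). In the other classes of these mice it was lower.

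*Dlk1*, a membrane protein related to the Notch ligands, was highest in endothelia-like cells. It reached 261 and 293 CPM in *Trim28* Δ/Δ mice and 416 and 315 CPM in *Trim28* f/f mice. Each *Trim28* Δ/Δ mouse lay below each *Trim28* f/f mouse, and the log2 change of -0.40 (SE 0.18) was not called (edgeR adjusted p = 0.769). Without mouse 4 it was -0.58 and called. The class joins cluster 4 with cluster 22, which held 0 *Dlk1* UMIs and had 35 and 24 cells of *Trim28* Δ/Δ mice but 5 and 13 of *Trim28* f/f mice. Within cluster 4 alone *Dlk1* was 331.5 and 345 CPM of the plain total against 402.5 and 340.3 CPM, and the genotypes overlapped. Among the named classes mural-like cells followed with 71.4 and 80.1 against 87.3 and 37.2 CPM, and stroma-like cells with 26.9 and 30.3 against 47.3 and 42.1 CPM (log2 change -0.65, SE 0.30, edgeR adjusted p = 0.982). Mural-like and stroma-like cells overlapped each other in *Trim28* f/f mice.

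In the progenitor and tubule classes *Dlk1* was at most 8.005 CPM in any mouse. In SSB-like cells it was 3.25 and 2.76 against 3.06 and 2.84 CPM (log2 change 0.00, SE 0.39), and in NPC-like cells 2.98 and 3.42 against 2.28 and 2.51 CPM. Scaled as for *Meg3*, free RNA accounts for an expected 1.07 CPM of *Dlk1* in SSB-like and 0.772 CPM in NPC-like cells. *Dlk1* was tested in 6 named classes, of which 0 were called by edgeR, 1 had an unadjusted p under 0.05, and DESeq2 called 0 of 11.

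*Rtl1*, a retrotransposon-derived gene needed in fetal vessels of the placenta, was counted almost entirely in endothelia-like cells, with 32 and 37 UMIs in *Trim28* Δ/Δ mice and 88 and 41 UMIs in *Trim28* f/f mice. These were 11.8 and 18.1 against 31.7 and 25.1 CPM, without overlap, and the log2 change of -0.96 (SE 0.29) was not called (edgeR adjusted p = 0.669). Without mouse 4 it was -1.10 and called. All of these UMIs lay in cluster 4, which held 2129486 and 1736178 UMIs in *Trim28* Δ/Δ mice and 2872243 and 1510642 in *Trim28* f/f mice. The genotypes did not overlap within that cluster either. Any other class held at most 2 *Rtl1* UMIs in a mouse. *Dio3*, which inactivates thyroid hormone, had 0, 4, 2 and 5 UMIs in mice 1 to 4 outside unnamed cluster 23, too few for a test in any class.

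**Figure D4:**
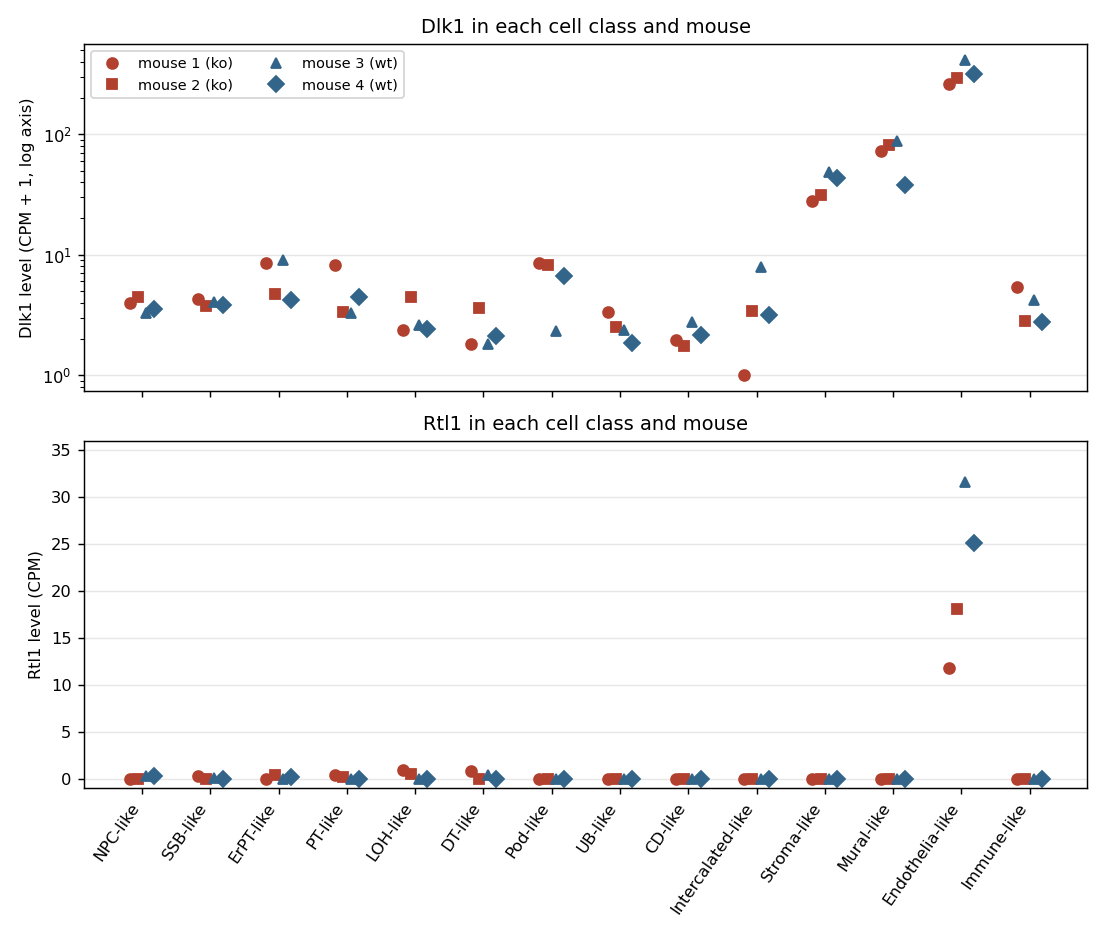
*Dlk1* level (CPM + 1, log axis, upper panel) and *Rtl1* level (CPM, lower panel) of each mouse in 14 named classes, without the erythroid-like class. *Dlk1* of the endothelia-like cells sits between 261 and 416 CPM, and *Rtl1* of the same cells between 11.8 and 31.7 CPM.

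*Dlk1* came from a small share of the endothelia-like cells. Before thinning, a *Dlk1* UMI was found in 13, 13, 31 and 11 cells of mice 1 to 4. The top 5% of cells held 98.9%, 98.5%, 78.6% and 94.2% of the UMIs. The 44 cells with at least 3 *Dlk1* UMIs after thinning (8, 7, 21 and 8 per mouse) were chosen by that level, and the values that follow are a description. Of these, 20 (45.5%) held an *Rtl1* UMI and 24 (54.5%) a *Meg3* UMI. Of 502 endothelia-like cells with 0 *Dlk1* UMIs after thinning, 2 (0.398%) held *Rtl1* and 86 (17.1%) held *Meg3*.

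In those 44 cells *Rtl1* was 124 CPM and *Meg3* 273 CPM, against 0.902 and 25.3 CPM in 425 other cells of the same cluster. The 425 cells had 0 *Dlk1* UMIs after thinning and 22 in all before it, and these levels are from the counts before thinning. *Rian* was 51.1 against 5.81 CPM. RNAs of genes known as maternally and as paternally expressed were thus counted in the same barcodes. The parental copy that each RNA came from was not measured. Scrublet marked 2 of the 44 as doublets. The 15 *Trim28* Δ/Δ cells had a median of 31130 UMIs, against 12050 in endothelia-like cells of these mice with 0 *Dlk1* UMIs after thinning. The 29 *Trim28* f/f cells had 12370 against 13010. The part of doublets in these values was not tested. *Ehd3*, a marker of glomerular endothelium, was 890 against 128 CPM. Of the 7 endothelial markers, *Plvap* was lower (66.6 against 351 CPM) and the other 6 were higher, from *Flt1* (692 against 674 CPM) to *Emcn* (2182 against 692 CPM). The *Meg3* share was 53.3% in the 15 *Trim28* Δ/Δ cells and 55.2% in the 29 *Trim28* f/f cells. Cluster 22 of the same class, whose leading genes include *Sox17* and *Gja4*, held 0 *Dlk1* UMIs in 77 cells.

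**Figure D5:**
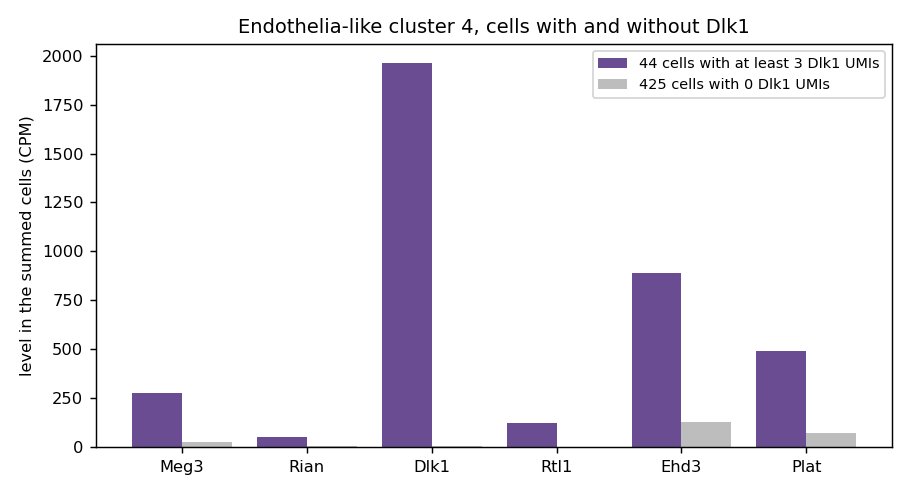
Level (CPM of the summed cells, bars) of 6 genes in 44 and 425 cells of the endothelia-like cluster 4. The 44 cells had at least 3 *Dlk1* UMIs after thinning and the 425 cells had 0. *Rtl1* sits at 124 against 0.902 CPM, *Meg3* at 273 against 25.3 CPM and *Ehd3* at 890 against 128 CPM.

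*Rian* had 11.6 to 25.6 UMIs per 100 *Meg3* UMIs in the named classes with at least 50 *Meg3* UMIs, a ratio of counts that is not corrected for length. Likeness of levels was ranked over 15 named classes, among genes with a mean of at least 10 CPM. The class means were taken over the mice of both genotypes, so that the changes between genotypes enter the ranking. The gene most like *Meg3* was *Rian* (Pearson r = 0.977 of log2(CPM + 1) class means), followed by *Fstl3* (r = 0.831). *B830012L14Rik* and *Mirg*, which lay below that mean, had r = 0.949 and 0.883 with *Meg3*. The genes most like *Dlk1* were *Sparcl1* (r = 0.96) and *Ecscr* (r = 0.944), and those most like *Rtl1* were *Sox18* and *Gimap5* (r = 0.964 each). These classes share 1 library, and no test was made.

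The genes around the domain were not called. Among all genes, at most 0.653% were called higher and 0.863% lower in any progenitor or tubule class, so sets of this size can give 0 calls at the share of all genes. Of 57 pairs of a flanking gene (such as *Wars*, *Begain* and *Ppp2r5c*) and a progenitor or tubule class, edgeR called 0, 0 had an unadjusted p under 0.05, and DESeq2 called 0 of 59. All 22 genes tested within 1 Mb of the domain gave 0 calls in 200 pairs with a named class, 4 with an unadjusted p under 0.05, and a smallest edgeR adjusted p of 0.317. Of the genes for imprint maintenance and silencing, 6 of 99 pairs in the progenitor and tubule classes were lower, all of them *Trim28*, while *Zfp445* (log2 change -0.12 in NPC-like and 0.02 in PT-like cells) and *Zfp57* (log2 change -0.32 in NPC-like and -0.77 in SSB-like cells) were not called in any class. Of the genes of thyroid hormone handling, on which DIO3 acts, 1 of 32 pairs was called higher. This was *Ttr* in PT-like cells (log2 change 1.99, edgeR adjusted p = 0.000462), where 0.434% of all genes were called higher. Of the Notch genes, to whose ligands DLK1 is related, 0 of 61 pairs were called by edgeR, 9 had an unadjusted p under 0.05, and DESeq2 called 0 of 62. For the imprint and thyroid lists 11 of 99 and 7 of 32 pairs had an unadjusted p under 0.05. Among all genes these were from 852 of 12545 in SSB-like to 1347 of 12566 in ErPT-like cells.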

How the data were processed

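The authors counted reads with Cell Ranger (6.0.0 by the methods, 4 by the matrix header) and deposited UMI counts of 32285 genes and 12 tags in 3921239 barcodes, without normalization or a selection of cells. GRCm38/mm10 is named in the submitters' processing notes without a role, and positions came from GENCODE M21 of GRCm38. Barcodes with at least 6890 UMIs, 200 genes and at most 10% mitochondrial UMIs gave 19272 cells. HTODemux of Seurat 5.3.0 (quantile 0.99) left 7363 cells of the 4 mice that the deposited tag list names, while 4721 with several tags, 2680 with none and 4508 with tags not on the list were not used. Cells were clustered after SCTransform (30 components, resolution 0.8), on 3000 variable genes less the members. Sums per mouse and class were filtered with filterByExpr, scaled by TMM and tested with edgeR 4.0.16 (R 4.3.3) at an adjusted p of 0.05, in classes with at least 10 cells per mouse. SEs were derived from the log2 change and the F statistic. Cells were thinned to 6800 UMIs for shares, and doublets were also marked by Scrublet (scanpy 1.11.5). DESeq2 1.42.0 was an alternative. The fits were tested on simulated data. All 7 members are named, and other genes by list. The members and lists were chosen with earlier results of these data known.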

Additional observations from a re-analysis of the deposited data

Results flagged for a closer look

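The change of *Meg3* differed from that in stroma-like cells in each progenitor and tubule class, by a difference of the log2 change of 2.28 in NPC-like, 3.13 in SSB-like, 2.48 in ErPT-like, 2.53 in PT-like, 3.87 in LOH-like and 4.003 in DT-like cells (edgeR interaction tests). For *Rian* the difference was 2.09 in NPC-like, 3.23 in SSB-like, 2.39 in ErPT-like, 2.18 in PT-like, 3.85 in LOH-like and 3.30 in DT-like cells. Against NPC-like cells the change of *Meg3* was larger by 0.82 in SSB-like cells (edgeR adjusted p = 0.0179), by 1.62 in LOH-like cells (edgeR adjusted p = 0.0403) and by 1.74 in DT-like cells (edgeR adjusted p = 0.0489). The share of all genes called against NPC-like cells was 2.3%, 0.305% and 0.581%. The contrasts against NPC-like cells were not repeated with free RNA subtracted. Of these contrasts, those of NPC-like and PT-like with stroma-like cells were planned, and the others were added after the values were seen.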

How the results depend on the processing

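No paired analysis was possible because the mice of the 2 genotypes share no number in the labels. The 14 calls became 12 to 19 under the other settings and 10 to 20 when 1 mouse was left out. The number called lower was 0, and between 0 and 3 when 1 mouse was left out: without mouse 4, *Dlk1* (log2 change -0.58), *Rtl1* (-1.10) and *Meg3* (-0.80) were called lower in endothelia-like cells. *Meg3* in DT-like cells lost its call under DESeq2, in LOH-like cells with free RNA subtracted or k-means, and in PT-like cells with no filter, while the log2 change stayed between 3.37 and 6.56, 3.49 and 5.38, and 2.33 and 3.55 over their alternatives. *Meg3* in stroma-like cells was called without mouse 3 (log2 change 0.63). *B830012L14Rik* in DT-like cells lost its call without mouse 1 or mouse 3, with free RNA subtracted, a minimum of 2500 UMIs and resolution 0.4, in ErPT-like cells without mouse 1 or mouse 2 and with a minimum of 2500 UMIs, and *Mirg* in DT-like cells without mouse 3 or mouse 4. *Rian* lost its call in NPC-like cells without mouse 1 or mouse 2, and in PT-like cells with no filter and by the share of the highest tag. Against NPC-like cells, the difference for *Meg3* lost its call in LOH-like cells without mouse 1 (1.41), in DT-like cells without mouse 4 (0.997), and in SSB-like cells without mouse 1, mouse 2 or mouse 3. Without mouse 4 the differences not called turned to -0.12 for *Meg3* in ErPT-like, -0.036 for *Meg3* in PT-like and -0.13 for *Rian* in PT-like cells, and their highest values with 1 mouse left out, all without mouse 3, were 0.58, 0.61 and 0.44. The cause was not tested. With a mouse left out, the lone mouse is taken to have the spread of the other 2, and counts of a few UMIs limit *Mirg*, *Rtl1* and *Dio3*.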

Other observations

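Unnamed cluster 7, led by *Pcp4*, *Lsp1* and *Wt1*, was also lower in *Trim28* (log2 change -2.35). Its highest marker scores were those for podocyte (0.984) and renal vesicle (0.951), with 0 podocyte markers among its 10 leading genes. *Meg3* reached 515 and 252 CPM in its *Trim28* Δ/Δ cells and 111 and 38.0 CPM in its *Trim28* f/f cells (log2 change 2.34, SE 0.42, edgeR adjusted p = 0.0376), without overlap. *Rian* rose there too (log2 change 2.60, edgeR adjusted p = 0.0165), and 0.281% of all genes tested were called higher. In unnamed cluster 15, led by *Pdgfrb* and *Ebf1*, *Dlk1* was 51.1 and 36.02 CPM against 97.3 and 186 CPM, and *Meg3* was 210 and 128 against 179 and 115 CPM, neither called.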
